A study of Homo sapiens with 2 samples.

Results

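Peaks of the histone demethylase KDM1B that lie at the ends of 2 or more neighbouring protein-coding genes were described. They were chosen by position alone: a peak narrower than 5 kb on chromosomes 1 to 22 or X, with its midpoint within 1 kb of an annotated end of each of at least 2 different coding genes. The rule found 1518 such peaks among the 78536 peaks of the deposited list, a share of 1.93% (95% Clopper-Pearson interval 1.84 to 2.03%). They make up 16.1% of the 9414 peaks of that width near any coding gene end. The other 7896 lay near an end of 1 gene, and 67977 lay over 1 kb from any coding gene end.

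The KDM1B_ChIP group was 1 chromatin library precipitated with the anti-FLAG M2 antibody. The input group was 1 library of unprecipitated DNA. Both were made from MDA-MB-231 cells, a breast cancer line of the triple negative type. The cells carried the pOZ retroviral vector and stably made 3xFLAG KDM1B, so both libraries hold the tagged protein on top of the cell's own, and whether the cells were 1 clone is not given. Cells without the tag were not analysed here. Neither group has a replicate, the depth is unknown because the list holds log2 ratios without read counts, and intervals below cover counting error over peaks or gene pairs only. Peaks and gene pairs are not independent replicates of the experiment, so no test of ChIP against input was possible. The list names no expressed genes, so the labelled cell type could not be checked against its markers.

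KDM1B, also called LSD2, is a flavin-dependent enzyme that removes methyl groups from lysine 4 of histone H3, and it has been described at promoters and inside transcribed genes. Neighbouring genes can meet in several ways. Where the starts of genes on opposite strands face each other across a short gap, the shared sequence is called a bidirectional promoter, usually CpG-rich and common among housekeeping genes. Where their ends face each other the genes are convergent, and where a gene ends shortly before the start of the next on the same strand they stand in tandem.

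The strand of both genes could be read for 1103 of the 1518 peaks, after setting aside 33 peaks that were shared only through a read-through locus, an annotated gene that joins the symbols of 2 neighbours. The strand of 1 or both genes was not known for 382 peaks. Facing starts accounted for 629 of the 1103 (57.0%, 54.0 to 60.0%), and these peaks belonged to 600 pairs of genes. Facing ends accounted for 202 (18.3%, 16.1 to 20.7%) and tandem genes for 210 (19%, 16.8 to 21.5%). The rest were 29 peaks at shared starts and 10 at shared ends of same-strand genes, and 23 where a start and an end on opposite strands met. In all 1518, 1456 peaks (95.9%) lay near 2 genes, 59 near 3 and 3 near 4 or more.

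The sequence between facing starts is shown for 7 pairs. The first 5 come from a list of well-studied bidirectional pairs, in which the peak covered both starts or 1 of them. The last 2 are among the 5 facing-start peaks with the highest ratio, in which the peak ended short of the gap. Each is the plus strand of GRCh38.p14 from RefSeq, 5′ to 3′, from the base after the start of the minus-strand gene to the base before the start of the plus-strand gene. Capitals mark letters of the searched motifs on either strand: the GC box GGGCGG, the NF-Y box CCAAT, the ETS core CCGGAAG, the NRF1 core GCGCATG, the TATA box TATAAA, the cyclic AMP response half-site TGACGT and the YY1 core AAGATGG.
HSPD1 and HSPE1 (chr2:197500275-197500378): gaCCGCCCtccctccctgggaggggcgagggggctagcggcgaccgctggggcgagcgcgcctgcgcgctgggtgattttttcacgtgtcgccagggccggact
HARS1 and HARS2 (chr5:140691371-140691454): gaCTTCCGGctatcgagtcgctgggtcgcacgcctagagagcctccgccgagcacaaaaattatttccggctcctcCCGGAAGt
SIRT3 and PSMD13 (chr11:236932-236975): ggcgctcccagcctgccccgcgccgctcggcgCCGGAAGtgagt
TK1 and AFMID (chr17:78187205-78187361): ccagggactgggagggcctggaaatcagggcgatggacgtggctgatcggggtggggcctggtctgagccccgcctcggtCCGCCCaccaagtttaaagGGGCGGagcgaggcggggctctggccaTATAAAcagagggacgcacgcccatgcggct
SARS2 and MRPS12 (chr19:38930764-38930943): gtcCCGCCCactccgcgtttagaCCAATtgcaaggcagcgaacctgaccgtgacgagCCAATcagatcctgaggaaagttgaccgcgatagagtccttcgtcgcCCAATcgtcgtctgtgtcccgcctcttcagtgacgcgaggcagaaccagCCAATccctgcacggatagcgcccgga
TFPT and PRPF31 (chr19:54115658-54115753): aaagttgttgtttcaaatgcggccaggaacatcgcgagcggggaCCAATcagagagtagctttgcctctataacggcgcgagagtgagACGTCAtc
LRCH4 and FBXO24 (chr7:100586130-100586327): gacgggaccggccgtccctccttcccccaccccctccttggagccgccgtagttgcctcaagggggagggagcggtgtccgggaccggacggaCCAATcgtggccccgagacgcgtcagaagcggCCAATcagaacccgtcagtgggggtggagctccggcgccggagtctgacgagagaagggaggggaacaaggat

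The gap between HSPD1 and HSPE1, which encode the mitochondrial chaperonin and its co-chaperonin, was 104 bases long with 74.0% GC and 13 CpG, and held a GC box. The gap between the histidyl-tRNA synthetase genes HARS1 and HARS2 held ETS cores and 59.5% GC. The gap between SIRT3, a mitochondrial deacetylase gene, and PSMD13, a proteasome subunit gene, was 44 bases long and also held an ETS core. A TATA box together with GC boxes was found between TK1, which encodes thymidine kinase, and AFMID. A GC box and NF-Y boxes were found between SARS2 and MRPS12, genes of mitochondrial translation. Of the 295 such gaps of 21 to 250 bp that could be read beneath facing-start peaks (277 pairs), the median GC content was 69.2% and ranged from 42.6 to 91.8%. A GC box occurred in 163, an NF-Y box in 83, an ETS core in 74 and a TATA box in 6, while 50 held none of the 7 motifs. A gap beneath several peaks was counted for each of them, so the 295 include repeats of the same gap. No such counts are given for the gaps of facing starts without a shared peak. The GC content and motif counts therefore do not set gaps beneath peaks apart from other gaps between facing starts.

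Sequence shared by the ends of neighbouring genes was dense in KDM1B peaks. Within 1 kb of ends of 2 or more coding genes there were 252.5 peaks per Mb (exact Poisson interval 240 to 266, over 6.01 Mb). Within 1 kb of an end of 1 gene there were 119 per Mb (116 to 121), and elsewhere 23 (22.8 to 23.2). The density in shared sequence was thus 2.13 times that near 1 gene and 10.98 times that elsewhere. The 3 intervals do not overlap. By orientation, the sequence within 1 kb of both ends held 339.9 peaks per Mb at facing starts, 243.8 at tandem pairs and 181.6 at facing ends.

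Whether a pair of gene ends carried a peak went with how the genes faced each other. The annotation holds 5477 pairs of ends of different coding genes that lie at most 2 kb apart, with or without a peak, and 33.7% of them had a peak midpoint within 1 kb of both ends. Among facing starts it was 627 of 1190 (52.7%, 49.8 to 55.6%). Among facing ends it was 206 of 929 (22.2%, 19.5 to 25%), and among tandem pairs 213 of 871 (24.5%, 21.6 to 27.5%), both below the share over all pairs. Protocadherin genes, whose clusters share a common last part, supplied 268 pairs of shared ends, and 190 of these were counted as having a peak through 1 and the same peak, so these pairs are not separate observations. Without protocadherin genes the share over all pairs was 31.4%. The difference between facing starts and facing ends lay mostly in weaker peaks. When only peaks at or above the list's median log2 ratio of 2.99 were counted, 12.7% of facing-start pairs and 11.5% of facing-end pairs had one. Such peaks made up 148 of the 629 facing-start peaks (23.5%), 107 of the 202 facing-end peaks (53.0%) and 55 of the 210 tandem peaks (26.2%). A like split was found near 1 coding gene only, with 26.8% of peaks at its start and 48.8% at its end. Over 1 kb from any coding gene end the share was 51.9%.

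**Figure D1:**
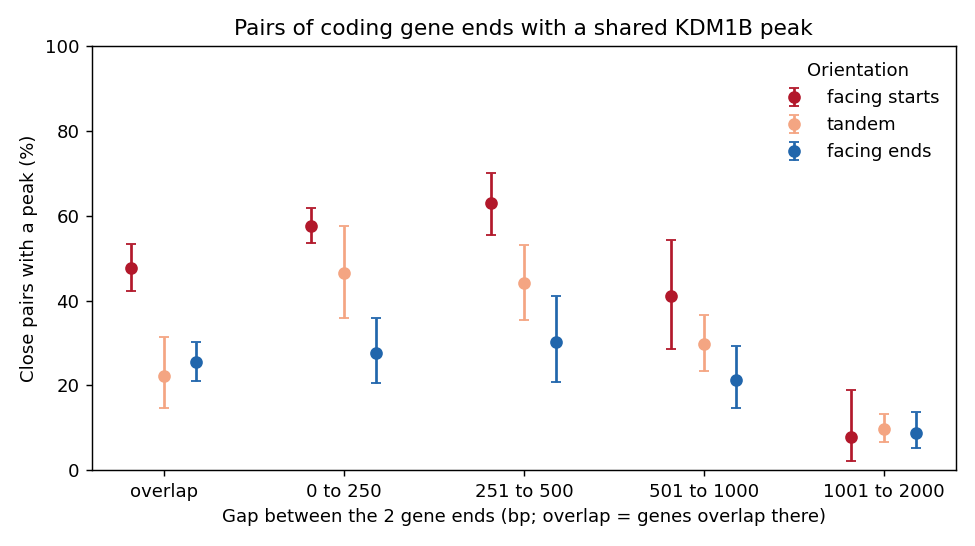
Share of close pairs of coding gene ends with a shared KDM1B peak (y axis, percent) by the gap between the ends (x axis, bp), for facing starts, tandem genes and facing ends. Points are shares with exact 95% binomial intervals. At gaps of 0 to 250 bp the shares are 57.7% for facing starts, 46.6% for tandem pairs and 27.7% for facing ends, and all 3 are below 10% over 1000 bp.

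Facing starts had a higher share than facing ends at matched gaps up to 500 bp, as the plot of shares by gap shows. At 0 to 250 bp, 57.7% of 560 facing-start pairs (53.5 to 61.8%) had a peak, against 27.7% of 141 facing-end pairs (20.5 to 35.8%). Over 250 and up to 500 bp the shares were 63.0% of 181 facing-start pairs and 30.2% of 86 facing-end pairs. Where the genes overlapped, they were 47.8% of 337 facing-start pairs and 25.5% of 373 facing-end pairs, and 22.1% of 104 tandem pairs (14.6 to 31.3%). Tandem pairs with a gap came between facing starts and facing ends. At 0 to 250 bp 46.6% of 88 (35.9 to 57.5%) had a peak, with an interval that overlaps that of facing starts, and over 250 and up to 500 bp 44.1% of 127 (35.3 to 53.2%), with one that does not. Over 1000 bp, where little sequence lies within 1 kb of both ends, the shares were 7.84%, 9.63% and 8.81% for facing starts, tandem pairs and facing ends, with overlapping intervals.

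**Figure D2:**
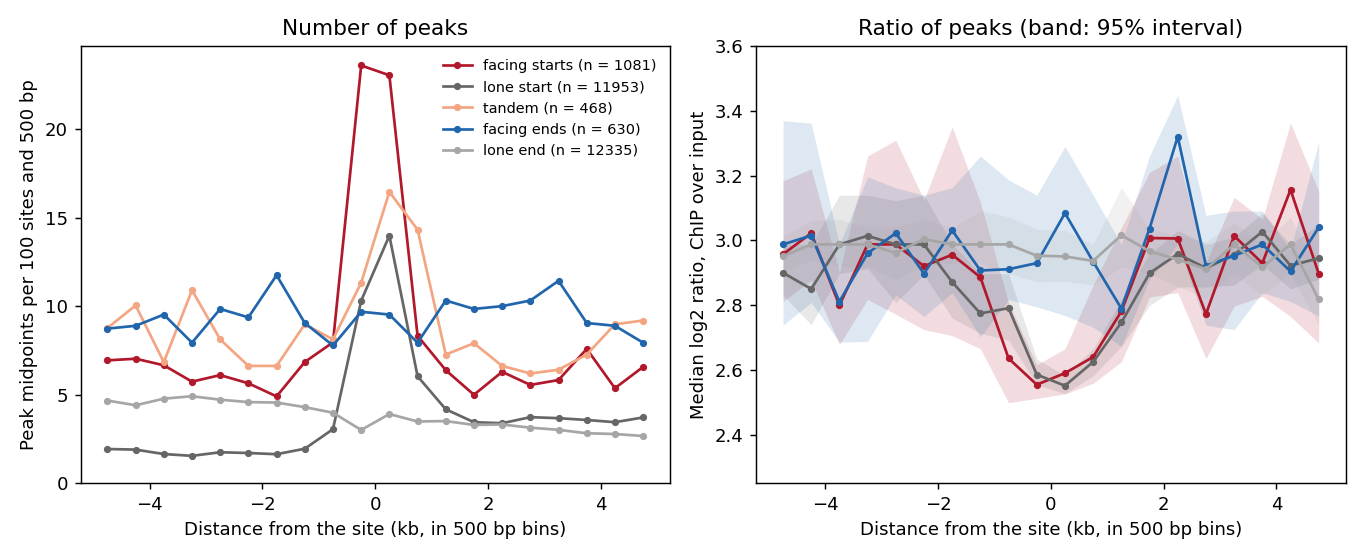
Left, peak midpoints per 100 sites in bins of 500 bp (y axis) by distance from the site (x axis, kb) for facing starts, lone starts, tandem pairs, facing ends and lone ends. Right, the median log2 ratio of the same peaks with its 95% interval; tandem pairs are left out there. Facing and lone starts show a narrow rise in number and a dip in ratio at the site, while facing ends show no rise and lone ends fall from the gene side, at left, to the side beyond the end.

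The peaks gathered tightly at facing starts and did not gather at facing ends. Sites were centred between the 2 ends for pairs with a gap or overlap of at most 1000 bp, and on the gene end itself for lone ends. Lone ends have no end of another coding gene within 2 kb, though the other end of a short gene may lie there. Facing starts had 23.4 peaks per 100 sites and 500 bp within 500 bp of the centre, against 6.28 at 2 to 5 kb, 3.72 times as many. Facing ends had 9.60 at the centre and 9.33 at 2 to 5 kb, a ratio of 1.03. Tandem pairs had 13.9 and 8, with the largest bin, 16.5, just past the centre towards the start of the downstream gene. Lone starts had 12.1 at the start and 2.67 at 2 to 5 kb, a ratio of 4.55, and lone ends 3.46 and 3.82.

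A window of 1 kb on each side held a peak at 59.5% of 1081 facing-start sites (56.5 to 62.4%), against 31.4% of 11953 lone starts (30.6 to 32.2%). It held a peak at 31.7% of 630 facing-end sites (28.1 to 35.5%), against 13.1% of 12335 lone ends (12.5 to 13.7%). A facing-start window holds 2 starts and a lone-start window 1, so these shares are not per start. The 2 to 5 kb flanks of pairs were also richer in peaks than those of lone ends.

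CpG content moved with these shares. CpG observed over expected was computed in the 300 bases around the start, 250 before it and 50 from it on, and averaged over both genes of a facing pair. It was at hand for 837 of the 1081 facing sites and for 10445 of the 11953 lone starts. In the class of 0.6 to 0.8, 59.6% of 240 facing sites (53.1 to 65.8%) had a peak, against 37.4% of 2123 lone starts (35.4 to 39.5%). In the class of 0.8 to 1 the shares were 62.2% of 407 facing sites (57.3 to 66.9%) and 50.4% of 3173 lone starts (48.7 to 52.2%). At 1 or more they were 64.8% of 128 facing sites (55.9 to 73.1%) and 56.1% of 1147 lone starts (53.2 to 59.0%), with overlapping intervals. Below 0.4 they were 14.3% of 14 facing sites and 5.89% of 3007 lone starts.

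**Figure D3:**
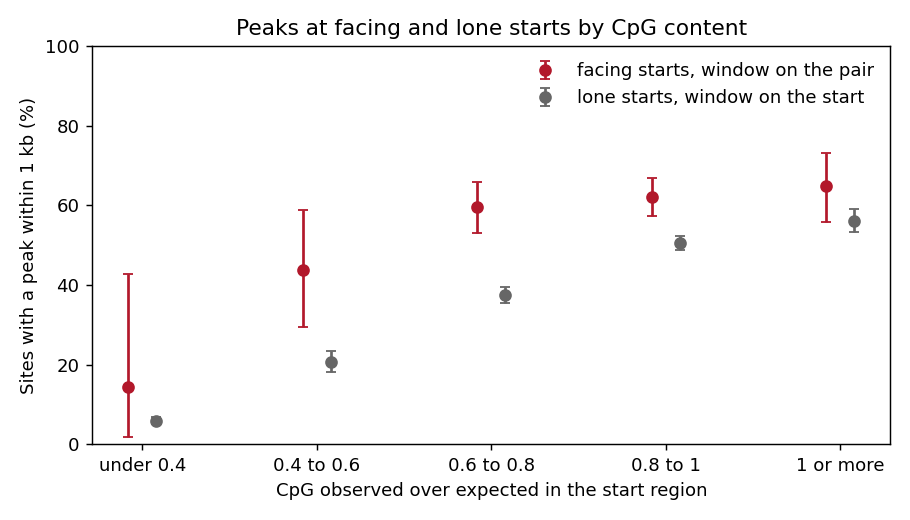
Share of sites with a peak midpoint within 1 kb (y axis, percent) by CpG observed over expected in the start region (x axis), for facing starts and lone starts, with exact 95% binomial intervals. The gap between facing and lone starts is 59.6% against 37.4% in the class of 0.6 to 0.8 and 64.8% against 56.1% at 1 or more.

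The start regions of genes under facing-start peaks held ETS cores more often, and TATA boxes less often, than those of facing starts without a shared peak. Of 1200 genes at facing-start peaks, 1064 had a start region in the RefSeq table, with a median GC content of 65.0% (quartiles 60.0 and 70.7%). For 994 genes of facing starts without a shared peak it was 63.7% (57.3 and 69.7%), for lone starts with a peak 67.7% and for all coding genes with a start region 62.7%. An ETS core occurred in 30.4% of the 1064 (27.6 to 33.2%), against 21.4% (18.9 to 24.1%) at facing starts without a shared peak. It occurred in 19% at lone starts with a peak, in 8.25% at lone starts without a peak and in 10.3% of all 35116 start regions of the table. A TATA box occurred in 2.82% (1.91 to 4%), against 6.04% (4.64 to 7.70%) at facing starts without a shared peak and 11.5% of all start regions. The NF-Y box was nearly level, with 39.1% against 40.6% and 34.6% over all regions. The GC box stood at 72.1% against 68.4%, at 75.1% at lone starts with a peak, at 58.5% over all coding genes and at 45.0% over all regions. The NRF1 core stood at 8.36% against 8.75% and the cyclic AMP response half-site at 13.9% against 12.1%. The YY1 core stood at 10.6% against 8.15%. The intervals overlapped for each of these last motifs. Both genes of a close pair can read the same bases, so these genes are not independent.

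The ratio of ChIP over input was low at facing starts. Shared-end peaks had a median log2 ratio of 2.69 (quartiles 2.37 and 3.09), a linear ratio of 6.45, against 2.71 for peaks near 1 gene end and 2.99 for peaks farther away. Facing-start peaks had a median of 2.58 (95% interval of the median 2.54 to 2.62), facing-end peaks one of 3.02 (2.91 to 3.09), a difference of -0.44, and tandem peaks one of 2.66 (2.59 to 2.76). The same order was found near lone ends, with 2.60 at 4360 peaks near a lone start and 2.95 at 2117 peaks near a lone end, a difference of -0.35. For these ratios, unlike for the site windows above, lone means that only 1 coding gene has an end within 1 kb of the midpoint. Another coding end may then lie within 2 kb of that end. Facing starts differed from lone starts by -0.02 and facing ends from lone ends by 0.07. The lone medians lay within the wider intervals of the facing medians. The facing-end median lay above the lone-end interval of 2.92 to 2.99, and the facing-start median just below the lone-start interval of 2.582 to 2.625. Along facing-start sites the median was 2.58 within 500 bp of the centre and 2.94 at 2 to 5 kb. At facing ends it was 3.00 and 2.96.

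**Figure D4:**
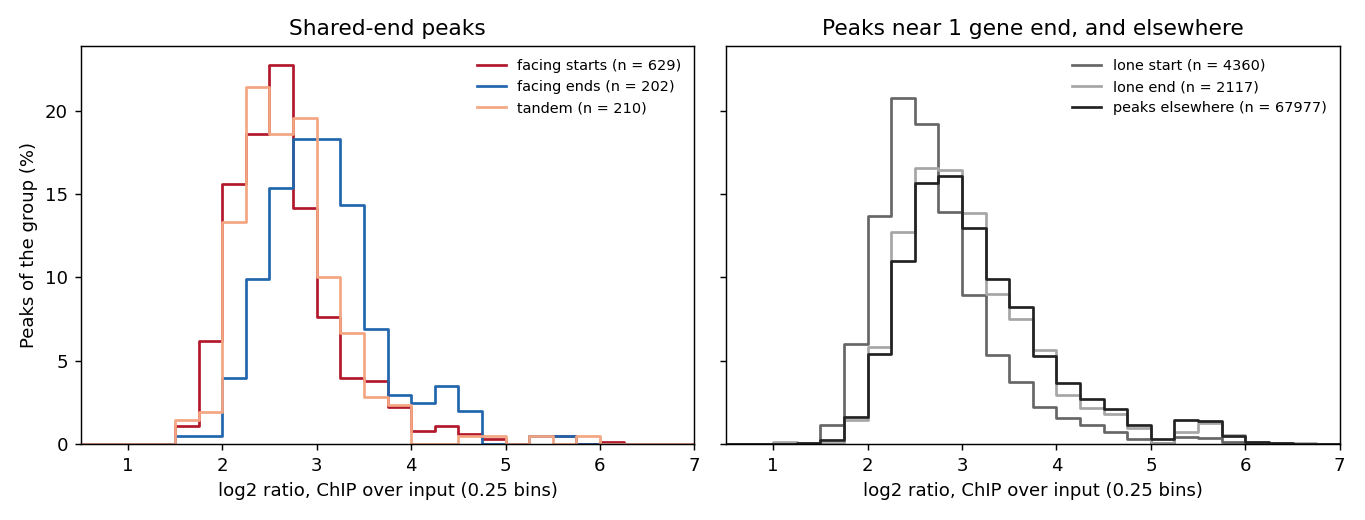
Distribution of the log2 ratio of ChIP over input (x axis, bins of 0.25) as the percent of peaks in each group (y axis), for shared-end peaks by orientation at left and for peaks near a lone start, near a lone end or farther away at right. Facing-start and tandem peaks lie to the left of facing-end peaks, with medians of 2.58, 2.66 and 3.02, as lone-start peaks lie to the left of lone-end peaks.

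High ratios were rare among shared-end peaks, as they were near single gene ends. Values above 4 on the log2 scale made up 85 of the shared-end peaks (5.60%, 4.50 to 6.88%), against 12.7% of all peaks narrower than 5 kb and 7.13% of peaks near 1 gene end (6.57 to 7.72%), an interval that overlaps. They made up 25 of the 629 facing-start peaks (3.97%, 2.59 to 5.81%), against 4.89% of peaks near a lone start (4.26 to 5.57%). They made up 4 of the 210 tandem peaks (1.90%) and 18 of the 202 facing-end peaks (8.91%, 5.37 to 13.7%), against 10.9% of peaks near a lone end. The highest linear ratios of the list fall on a common step of 2.64, and most others do not. Peaks at whole multiples of it made up 5.88% of facing-start peaks and 7.43% of facing-end peaks. Such multiples made up 6.74% of peaks near a lone start, 11.7% near a lone end and 13.1% far from gene ends. Without whole multiples the medians were 2.56 at facing starts and 3.00 at facing ends.

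Shared-end peaks were somewhat wider than others. The median width was 944.5 bp (quartiles 694 and 1243), against 871 bp near 1 gene end and 785 bp farther away, and it was alike in the main orientations, with 941 bp at facing starts, 939 bp at facing ends and 948 bp at tandem genes. The gap beneath facing-start peaks had a median of 111 bp, and 163 of the 629 pairs overlapped at their starts. The peak covered both starts in 363 of 629 cases (57.7%, 53.7 to 61.6%), 1 start in 155 and no start in 111. At facing ends it covered both in 81 of 202 cases (40.1%, 33.3 to 47.2%), 1 in 59 and none in 62. The midpoint itself fell between the starts in 109 of the 629 facing-start peaks (17.3%), and between the ends in 91 of the 210 tandem peaks (43.3%). These shares are not at matched gaps. The median gap was 438 bp at tandem peaks, and overlapping pairs, which could not count, were 163 of the 629 and 20 of the 210. The midpoint lay a median of 254 bp from the centre of the pair at facing starts, against 323 bp at facing ends.

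Shared-end peaks were found at 16 of 25 well-studied bidirectional pairs listed by name. Of the 25, 22 had ends at most 2 kb apart in this annotation. Among these, 16 had facing starts by known strands, and 12 of them had a peak, beside 52.7% of all facing-start pairs. The strand was not known for the other 6, of which 4 had a peak. The list is short and was chosen by name, so these counts do not set it apart from other facing starts. Most ratios were low: the median of the strongest peak per pair was 2.56 on the log2 scale and the lowest was 1.99, at HARS1 and HARS2. The peak at HSPD1 and HSPE1 had 2.53 and ran over both starts with 1437 bp (chr2:197499520-197500957). Those at SIRT3 and PSMD13 with 2.53 and at TK1 and AFMID with 2.62 lay at the same level. PMS2, a mismatch repair gene, and AIMP2 had 2.59, KARS1, a lysyl-tRNA synthetase gene, and TERF2IP, a telomere protein gene, had 2.30, and NTHL1, a base excision repair gene, and TSC2 had 2.22. COX4I1, a cytochrome c oxidase subunit gene, and EMC8 had 2 peaks, the stronger with 2.30, and SARS2 and MRPS12 had 2.33. PSENEN, which encodes a gamma-secretase subunit, and U2AF1L4 had 2.30.

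Higher values were found at a few of the listed pairs. The stronger of 2 peaks at PRKDC, which encodes the DNA-dependent protein kinase, and MCM4, a replicative helicase gene, had 5.82. BRCA2 and ZAR1L had 3.51, TRMT2A and RANBP1 3.25, and APEX1, the abasic site endonuclease gene, and OSGEP 3.01. No shared-end peak was listed at NPAT and ATM, at the collagen IV pair COL4A1 and COL4A2, at PDCD10 and SERPINI1, at TAP1 and PSMB9 or at SURF1 and SURF2. PPAT and PAICS, MRE11 and ANKRD49, and ACADVL and DLG4 lay over 2 kb apart by their outermost annotated starts.

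A few facing-start peaks had ratios far above the rest. The top value, 6.16, stood at DOCK4, a guanine nucleotide exchange factor gene, and the zinc finger gene ZNF277 (chr7:112205796-112206695, gap 296 bp). MRPL50, a mitochondrial ribosomal protein gene, and ZNF189 followed with 5.72, then NUMA1, a spindle protein gene, with LRRC51, and LRCH4 with the F-box gene FBXO24, both with 5.65. TFPT, which encodes a subunit of the INO80 remodeller, and the splicing factor gene PRPF31 had 5.49, a value shared by the facing-start peaks at RPS18, a ribosomal protein gene, and VPS52 and at PSMA2 and MRPL32. Each of the 5 pairs named first was a whole multiple of the step in linear ratio. The peaks at LRCH4 and FBXO24 and at TFPT and PRPF31, whose gaps are printed above, had their midpoints 487 and 453 bp from the nearer start. The 5 pairs with the closest starts had values around the facing-start median of 2.58: 2.12 at NUDT22 and TRPT1, whose starts are neighbouring bases, 2.64 at MANSC4 and KLHL42, 2.54 at BBIP1 and SHOC2, 2.69 at CXorf58 and APOO, and 2.28 at SDF2 and SUPT6H.

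At facing ends the highest ratios were on the X chromosome. SRPK3, an SR protein kinase gene, and IDH3G, a subunit gene of mitochondrial isocitrate dehydrogenase, had 5.65 (chrX:153785397-153785919), and PRICKLE3 and PLP2 had 5.49 at ends that overlap by 433 bp. C1orf232 and FAM110D had 4.72, as did GNMT, a glycine methyltransferase gene, and PEX6, a peroxisome biogenesis gene. VMA12 and SEBOX, a homeobox gene, had 4.65, the highest facing-end value that was not a whole multiple of the common step. The higher values named here were all whole multiples in linear ratio. The X chromosome nevertheless held few shared-end peaks, 15 in all, at 10.1% of its 148 close pairs, against 33.7% of all close pairs.

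Among genes in the same direction, PHPT1, a phosphohistidine phosphatase gene, and MAMDC4 had the top ratio of 5.93 (chr9:136851033-136851766). The receptor tyrosine kinase genes CSF1R and PDGFRB, which lie in tandem with 474 bp between them, shared a peak of 5.40. PRAF2 and WDR45, an autophagy gene, had 4.99, and RHOT2, a mitochondrial GTPase gene, and WDR90 had 4.54. The values at PHPT1, CSF1R and PRAF2 were whole multiples of the common step in linear ratio. Without whole multiples the highest tandem value was 4.54. GDF1 and CERS1, which share an annotated end, had 4.14 at a peak 966 bp from it. The widest shared-end peaks were 4626 bp at CLSTN1 and PIK3CD, 4393 bp at SETD6 and NDRG4 and 4338 bp at LRRC14 and C8orf82, with ratios of 3.11, 2.78 and 3.14. The peak near the most genes, with 3.63, lay at the common end of 22 protocadherin gamma genes. It was followed by a peak of 4.28 at NPFF, TARBP2, ATF7 and a read-through locus, and one of 2.74 at 4 unnamed loci of chromosome 19.

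RNA polymerase and heat shock genes with close coding neighbours carried shared-end peaks more often than coding genes in general, histone, olfactory receptor and solute carrier genes less often, and most other families stood near the general share. In all, 2764 of 19974 coding genes (13.8%) lay at a shared-end peak, or 38.0% of the 7267 that have an end of another coding gene at most 2 kb from an end of their own. The 15 lists follow gene names, and no p-value was computed over them. RNA polymerase subunit genes with a close neighbour had one in 15 of 22 cases (68.2%, 45.1 to 86.1%) and heat shock and chaperonin genes in 24 of 36 (66.7%, 49.0 to 81.4%). These 2 intervals lie above the share over all coding genes. That share mixes all orientations, and the lists were not matched for orientation. Counted over pairs rather than genes, 52.7% of facing starts had a peak, which lies inside both intervals. Respiratory chain complex I genes had 18 of 34 (52.9%), mitochondrial ribosomal protein genes 26 of 52 (50%), proteasome genes 11 of 23 (47.8%), cytoplasmic ribosomal protein genes 18 of 39 (46.2%) and DNA repair genes 24 of 53 (45.3%), all with intervals that include 38.0%. Aminoacyl-tRNA synthetase genes stood at 7 of 19 (36.8%), genes named ZNF at 48 of 134 (35.8%) and genes named TMEM at 37 of 109 (33.9%). Solute carrier genes had 32 of 128 (25%, 17.8 to 33.4%), replication-dependent histone genes 6 of 53 (11.3%, 4.27 to 23%) and olfactory receptor genes 1 of 36 (2.78%, 0.0703 to 14.5%). Genes of a list that share a peak were counted separately, which the intervals do not allow for. The 6 histone genes lay at 3 peaks, and the heat shock genes HSPD1 and HSPE1 shared a peak. Collagen genes had 2 of 12, and both keratin genes with a close neighbour, KRT8 and KRT18, shared their strongest peak, 1 of 2 shared-end peaks at keratin genes.

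**Figure D5:**
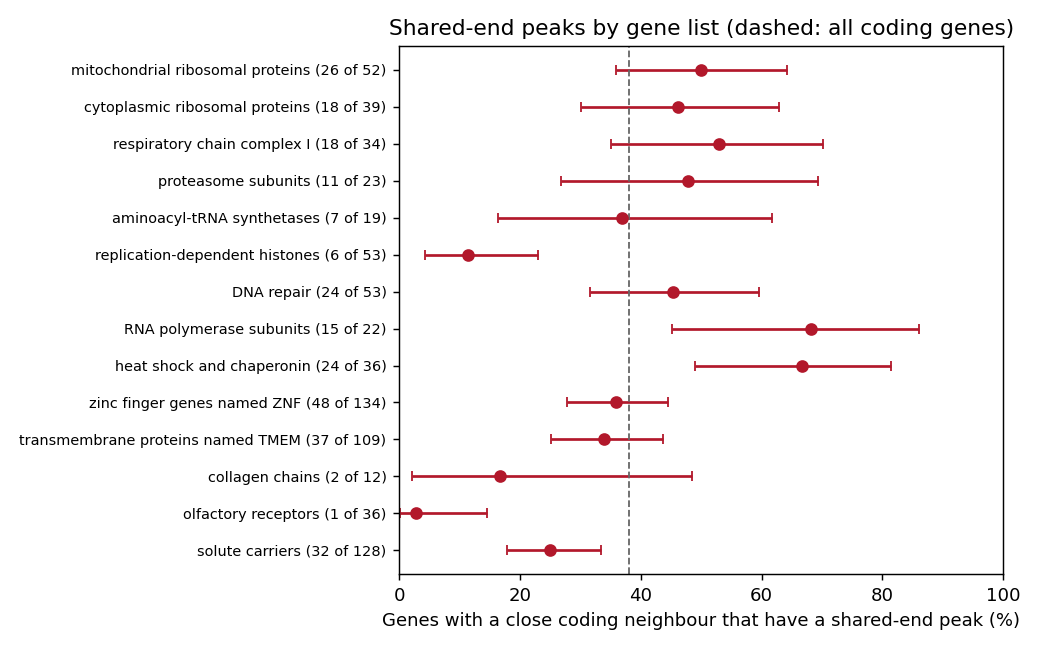
Share of genes with a close coding neighbour that have a shared-end peak (x axis, percent) for gene lists with at least 10 such genes (y axis), with exact 95% binomial intervals; counts stand in brackets. The dashed line is the 38.0% over all coding genes with a close neighbour. RNA polymerase and heat shock genes lie above it, and solute carrier, histone and olfactory receptor genes below it.

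Within these families the partner was at times a gene of the same machinery. Among RNA polymerase genes, 11 of the 15 lay at facing-start peaks, from 3.69 at POLR1C and YIPF3 to 2.0 at POLR3C and RNF115. So did 14 of 26 mitochondrial ribosomal protein genes and 11 of 24 heat shock and chaperonin genes, while facing starts made up 41.4% of all shared-end peaks. POLR2A, which encodes the largest subunit of RNA polymerase II, had 2.84. MRPL46 and MRPS11, both genes of the mitochondrial ribosome, shared a peak of 3.57, and MRPL32 shared one of 5.49, as high as that of TFPT and PRPF31, with the proteasome gene PSMA2. Among chaperone genes, DNAJC30 and BUD23 had 3.36, DNAJB9 and THAP5 3.17, and CCT4 and COMMD1 3.12. Complex I genes included NDUFB11 with RBM10 at 3.76 and NDUFS1 with EEF1B2 at 2.30. ERCC8, a nucleotide excision repair gene, and NDUFAF2, an assembly factor gene of complex I, shared a peak of 2.34. Among repair genes POLE with PXMP2 had 3.39, PALB2 with DCTN5 3.08 and XPC with LSM3 2.49. Of the histone genes, H2AC20 and H2BC21 faced each other across a shared peak of 3.95. The single olfactory receptor gene was OR2B11, whose end faces that of NLRP3, with 3.19.

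Chromosomes 17, 1 and 19 held the most shared-end peaks, with 154, 153 and 143. Of their 413, 498 and 601 close pairs, 38.7%, 31.5% and 26.3% had a peak, so that the shares on chromosomes 1 and 19 lay below the 33.7% over all close pairs. An end of a long non-coding RNA gene lay within 1 kb of 108 shared-end peaks (7.11%, 5.87 to 8.53%), against 1299 of the peaks near 1 coding gene end (16.5%, 15.6 to 17.3%).

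Near the 1 kb limit of the rule, 139 peaks had the second gene end in the last 100 bp inside it, with a median log2 ratio of 2.79, and 143 had it in the next 100 bp outside, with 2.75. The 3 nearest inside were at MAP3K21 and PCNX2 with 2.24, YARS1 and S100PBP with 2.50, and TP53INP2 and NCOA6 with 3.72. The 3 nearest outside were at ANKRD13A and GIT2 with 2.30, NPB and PCYT2 with 3.31, and GABPB2 and MLLT11 with 2.76.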

How the data were processed

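The submitters' processing notes name Trim Galore 0.4.5, Bowtie2 2.2.9 and the build hg38. No source used here gives the peak caller or its thresholds. The deposited list gives 1 log2 ratio of ChIP over input per peak, computed by the authors, with no read counts, so depth is unknown. That it is a log2 scale was read from the values, because the linear form of the highest ones falls on a common step. Most of the other values do not fall on it (tolerance 1e-04 of the step for whole multiples). Coordinates are printed as deposited, and their starts may count from 0 or from 1.

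RefSeq's gene table (GRCh38.p14) gave 19974 coding genes on the chromosomes used. Ends are the outermost annotated positions, which may lie away from the start used in these cells. Strand was taken from the RefSeq table of start regions by gene ID, for 15812 genes (79.2%) and for none on chromosome 8. An orientation was read from the ends of the 2 nearest genes, leaving read-through loci aside where 2 other genes remained. Start regions were used where their position matched the outermost start. Motifs were searched on both strands, and the ETS core and other motifs may overlap.

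Intervals are exact Clopper-Pearson or Poisson, and those of medians come from order statistics, all at 95%. No p-value was computed. The text names the 5 highest peaks of each orientation, the 3 widest, the 3 near the most genes, the 3 on each side of the 1 kb limit, the 5 pairs of closest starts and the pairs of a list of 25, of which some are not reported here; family examples were chosen after their values were seen. The members and lists were chosen with earlier results of these data known. Alternatives were distances of 500 bp and 2 kb, any overlap, peaks at or above the median ratio, joining of peaks within 1 kb, all widths, and removal of read-through loci or whole multiples. Removal of protocadherin genes, and the orientation results under each alternative, were added after the data were seen. The scripts were tested on simulated data. Python 3.11.15, pandas 2.3.3 and scipy 1.17.1 were used.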

Additional observations from a re-analysis of the deposited data

How the results depend on the processing

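No paired analysis was possible because each group holds 1 library, and no replicate could be left out. The 1518 shared-end peaks became 764 at 500 bp, 2994 at 2 kb and 463 at or above the median ratio. All widths, any overlap, joining, and removal of read-through loci, whole multiples or protocadherin genes kept the count within 1.5 times, from 1047 to 2251. The facing-start share of 57.0% was 69.2% at 500 bp, 64.9% with joined peaks, 47.9% by overlap, 45.4% at or above the median ratio and 42.6% at 2 kb. The share of close pairs with a peak, 33.7%, was 20.7% at 500 bp, 38.2% at 2 kb, 44.8% by overlap, 13.4% at or above the median ratio, 21.6% with joined peaks, 31.4% without protocadherin genes and 31.7% without whole multiples. Facing-start pairs had a peak in 37.4% of cases at 500 bp, 58.0% at 2 kb, 59.4% by overlap, 43.8% with joined peaks and 12.7% at or above the median ratio. Facing-end pairs, in the same order, had one in 12.5%, 35.3%, 37.1%, 11.2% and 11.5%. Facing starts thus stayed above facing ends under each of the 9 alternatives, by little in the last of these. The median log2 ratio of 2.69 was 2.77 at 2 kb, 2.74 by overlap, 2.75 with joined peaks and 3.36 at or above the median ratio. The facing-start minus facing-end difference of -0.44 was -0.34 at 2 kb and -0.58 with joined peaks. It turned to 0.028 at or above the median ratio, where only peaks past a common limit remain, which by itself narrows a difference between medians. The median width of 944.5 bp was 905.5 bp at 2 kb, 970.0 bp by overlap, 981 bp with joined peaks and 839 bp at or above the median ratio. Where no cause is named, it was not tested. Depth limits are unknown, as the ratios come without counts.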
